A study of Mus musculus with 4 samples.

Results

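The Bcl2 family of death regulators was followed gene by gene in single-cell RNA libraries of the mouse ovary. Its 10 members were listed by symbol from the 32285 genes of the count matrices, and all 10 were present. They comprised the 2 effectors Bax and Bak1, the 5 BH3-only activators and sensitisers Bbc3, Pmaip1, Bcl2l11, Bid and Bad, and the 3 pro-survival genes Bcl2, Bcl2l1 and Mcl1. The effectors and the BH3-only genes are called pro-death below (7 genes).

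The family decides whether the outer mitochondrial membrane stays intact. Bax and Bak1 open pores in that membrane and release cytochrome c, which starts the caspase cascade, while Bcl2, Bcl2l1 and Mcl1 hold them in check by binding them or the BH3-only proteins, and BH3-only proteins relieve that hold when a cell is damaged or deprived of growth signals. After DNA damage the transcription factor p53 can raise Bax, Bbc3 and Pmaip1, and in the ovary this route is known for the loss of granulosa cells after chemotherapy. Much of the family's control acts on the proteins, which transcript counts do not show.

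The study profiled ovaries of mice treated from postnatal day 25, 4 hours after the last dose, with 1 library for each of 4 groups. The control group received PBS or saline as vehicle, the doxorubicin group 2 weekly doses of doxorubicin (an anthracycline that breaks DNA) at 3 mg/kg, the doxorubicin+AMH group the same dose together with recombinant human AMH (anti-Müllerian hormone, a hormone that granulosa cells make) at 0.75 mg/kg, and the AMH group AMH alone at 0.75 mg/kg. Each library pooled 1 ovary from each of 5 animals, which leaves variation among the animals unmeasured. No strain, genotype or route of dosing was given in the sources used here.

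A single library per group allowed no test of the groups, and every difference below is one between libraries rather than treatments. The matrices held 7141 to 9478 cell barcodes and 138647495 to 178279122 UMIs (molecular tags, each counting 1 captured transcript) per library, at a median of 9834.5 to 13575 UMIs per barcode, lowest in the AMH library. Any pair of libraries had 11 to 24 barcodes in common. Cells were clustered jointly and named by marker genes, with names written "-like". Granulosa-like cells (2141 to 3043 per library, the somatic cells of follicles), stroma-like cells (2180 to 3039), theca-like cells (590 to 909, the androgen-making cells around follicles), mural smooth muscle-like cells (647 to 1066), blood endothelial-like cells (62 to 170) and macrophage-like cells (95 to 189) had at least 50 cells in each library and formed the 6 compared classes. Oocytes were not among the compared classes, with 2 to 14 cells per library that met the oocyte check. Levels are CPM, UMIs of a gene scaled to 1000000 UMIs of the class in that library, and where 4 values stand together their sequence is control, then doxorubicin, then doxorubicin+AMH, then AMH. Ratios are log2 ratios of these levels with a 95% exact interval for counting error only, and a ratio past 1.5-fold, in a gene with at least 100 UMIs in both libraries together, is called higher or lower.

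The promoter windows of Bax and Bbc3 are shown because both are textbook p53 targets that were higher in the doxorubicin library, and that of Ccng1 because its pattern across classes and libraries was closest to that of Bax (below). Each is the run of 250 bases ahead of the annotated start, from RefSeq on GRCm38.p6, with a match to the p53 half-site in capitals. The Bax window is chr7:45466899-45467148 on the minus strand, the first Bbc3 window chr7:16309333-16309582 on the plus strand, and the Ccng1 window chr11:40755287-40755536 on the minus strand.
Bax: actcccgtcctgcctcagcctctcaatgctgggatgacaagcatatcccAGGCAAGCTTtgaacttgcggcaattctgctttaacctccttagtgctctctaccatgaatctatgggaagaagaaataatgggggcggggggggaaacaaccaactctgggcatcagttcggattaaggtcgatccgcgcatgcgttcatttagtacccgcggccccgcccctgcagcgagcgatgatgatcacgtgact
Bbc3: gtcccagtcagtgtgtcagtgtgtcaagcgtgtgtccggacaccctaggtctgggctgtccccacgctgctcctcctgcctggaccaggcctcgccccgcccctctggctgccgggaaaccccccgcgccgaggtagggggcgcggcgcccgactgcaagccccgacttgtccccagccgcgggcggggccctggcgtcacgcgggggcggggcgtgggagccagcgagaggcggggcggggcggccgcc
Ccng1: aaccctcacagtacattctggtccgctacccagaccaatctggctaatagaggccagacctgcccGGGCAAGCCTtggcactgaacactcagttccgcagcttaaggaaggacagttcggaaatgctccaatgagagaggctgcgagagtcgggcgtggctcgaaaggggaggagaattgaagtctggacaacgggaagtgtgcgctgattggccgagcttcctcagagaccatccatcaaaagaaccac
The half-site began 201 bases upstream of the start in Bax and 185 in Ccng1, and the Bbc3 window held none. RefSeq windows matched 9 of the 10 members, all but Pmaip1 (15 windows, since some genes have several starts), and 1 of the 15, or 6.67%, held a half-site. Of all 32851 windows of the same length, 2341 or 7.13% held one. The half-site reads the same on both strands, so 1 search covered both. A match is a description of letters, and a window without one shows only that these letters are absent from it.

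Bax, the effector that moves from the cytosol into the mitochondrial membrane, had a level above control in the doxorubicin library, and above AMH in the doxorubicin+AMH library, in 6 of 6 classes. The ratio passed 1.5-fold in 2 classes of the first pair and 1 of the second. In this sequence granulosa-like cells held 104, 135, 133 and 112 CPM, theca-like cells 69.6, 104, 82.6 and 64.2 CPM, and stroma-like cells 79.4, 137, 99.4 and 83.6 CPM. Both libraries with doxorubicin lay above both without it in these 3 classes. No share of all genes with such an order of libraries is given, here or below, so these orders are described without a background. Macrophage-like cells held 201, 364, 288 and 186 CPM, again with no overlap between the libraries with and without doxorubicin. Mural smooth muscle-like cells held 84.3, 111, 95.1 and 86.8 CPM. Blood endothelial-like cells held 123, 164, 122 and 91.2 CPM, and there the doxorubicin+AMH library lay just under control.

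The doxorubicin / control ratio of Bax was 0.38 in granulosa-like cells (interval 0.33 to 0.42), 0.58 in theca-like cells (0.48 to 0.67), 0.78 in stroma-like cells (0.71 to 0.85), 0.39 in mural cells (0.27 to 0.51), 0.42 in endothelial cells (0.22 to 0.61) and 0.86 in macrophage-like cells (0.62 to 1.10). The ratios of stroma-like and macrophage-like cells passed 1.5-fold, at 1.72-fold and 1.82-fold, though the stroma-like ratio was 0.58, just short of it, without a cluster led by Clec3b (described below). The doxorubicin+AMH / AMH pair, which shares no library with it, gave 0.24, 0.36, 0.25, 0.13, 0.42 and 0.63 in the same order, all with intervals above 0. Only the last of these passed 1.5-fold, and it fell short at 0.54 with each cell weighted equally. The doxorubicin+AMH / doxorubicin ratio of Bax was below 0 in 6 of 6 classes, from -0.46 in stroma-like cells (-0.53 to -0.39) to -0.02 in granulosa-like cells (-0.07 to 0.02), and none passed 1.5-fold. All genes leaned the same way in this pair, from 37.6% above 0 in granulosa-like cells (median -0.07) to 45.8% in endothelial cells. The granulosa-like ratio of Bax lay above that median.

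**Figure D1:**
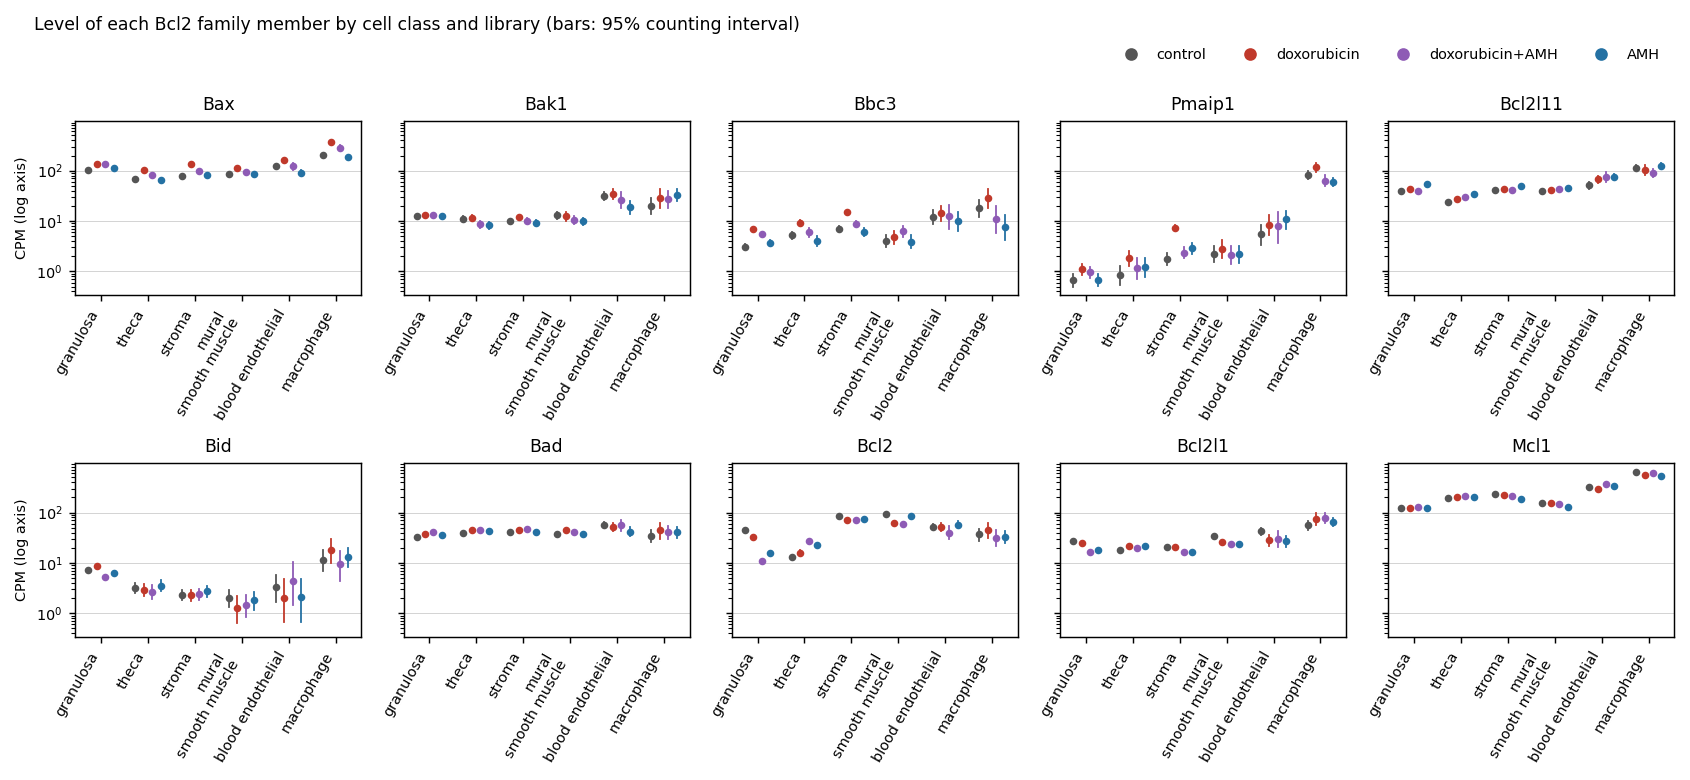
Level of each of the 10 members (CPM, log axis) in 6 cell classes (x axis) and 4 libraries (colours); points are class sums of 1 library and bars are 95% exact Poisson intervals for counting error only. The Bax points of the doxorubicin library lie above those of control in all 6 classes, and the granulosa-like Bcl2 points of both AMH libraries (15.8 and 10.9 CPM) lie below control (44.6 CPM) and doxorubicin (32.7 CPM).

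Bak1, the effector that sits in the mitochondrial membrane in resting cells, differed little with doxorubicin. Granulosa-like cells held 12.8, 12.95, 12.98 and 12.6 CPM, and stroma-like cells 9.94, 12.02, 10.0 and 9.32 CPM. Over the 5 classes with enough UMIs its doxorubicin / control ratio ran from -0.07 to 0.27. Bak1 was below control in the AMH library in 5 of 5 classes, and past 1.5-fold in endothelial cells (32.1 against 19.2 CPM, ratio -0.75, interval -1.27 to -0.24), a ratio that was -0.46 with doublets kept. All genes leaned the same way in these classes, from 32.9% above 0 in granulosa-like cells to 45.7% in theca-like cells. The granulosa-like ratio of Bak1 (-0.02) lay above its all-gene median of -0.09. Bak1 overlaps Ggnbp1 on the opposite strand, Bid overlaps Bcl2l13, Bad overlaps Gpr137 and Bcl2 overlaps D630008O14Rik. Whether strand was used in counting was not given in the sources used here, so reads of these pairs may not be told apart.

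Bbc3, which encodes PUMA, a BH3-only protein that binds every pro-survival member and is a classic p53 target, was higher in the doxorubicin library in granulosa-like, theca-like and stroma-like cells. Granulosa-like cells held 3.07, 6.84, 5.50 and 3.74 CPM, theca-like cells 5.18, 9.13, 6.05 and 4.01 CPM, and stroma-like cells 7.04, 15.3, 8.89 and 6.05 CPM. In all 3 the doxorubicin library was highest and doxorubicin+AMH came next. The doxorubicin / control ratios were 1.15 (0.91 to 1.40; 2.22-fold), 0.82 (0.49 to 1.15) and 1.12 (0.90 to 1.35; 2.18-fold). At these low levels a pseudocount of 5 CPM brought the first and second to 0.55 and 0.47, short of 1.5-fold. The doxorubicin+AMH / AMH ratios were 0.56 (0.33 to 0.79), 0.60 (0.14 to 1.06) and 0.56 (0.25 to 0.86), and only that of theca-like cells passed 1.5-fold. The theca-like ratio reversed to -0.13 with the clusters held at one mix. With AMH added to doxorubicin Bbc3 was lower in theca-like cells (-0.59, interval -0.96 to -0.23) and in stroma-like cells (-0.79, interval -1.02 to -0.56), though the latter was -0.43 without the cluster led by Clec3b and the former -0.48 with each cell weighted equally. Mural cells differed in order, with 4.05, 4.85, 6.22 and 3.92 CPM and the highest level in doxorubicin+AMH (ratio to AMH 0.67, interval 0.13 to 1.22, and 0.22 with each cell weighted equally).

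Pmaip1, which encodes NOXA, a BH3-only protein that binds Mcl1, showed the widest single ratio of the 6 classes as reported, doxorubicin / control in stroma-like cells. Without the cluster led by Clec3b that ratio was 1.45, smaller in size than the granulosa-like Bcl2 ratio of -1.58 (doxorubicin+AMH / doxorubicin). Stroma-like cells held 1.78, 7.29, 2.36 and 2.90 CPM, so that the doxorubicin library stood alone above the other 3. The doxorubicin / control ratio there was 2.03 (1.62 to 2.46; 4.09-fold; 228 against 62 UMIs), while doxorubicin+AMH / AMH was -0.29 (-0.81 to 0.22). Doxorubicin+AMH / doxorubicin was -1.63 (-2.05 to -1.22), and AMH / control 0.70 (0.19 to 1.22). With a pseudocount of 5 CPM, above most of these levels, doxorubicin / control was 0.86, doxorubicin+AMH / doxorubicin -0.74 and AMH / control 0.22, and with each cell weighted equally the first was 1.38. Pmaip1 transcripts were scarce in granulosa-like cells. They held 0.676, 1.10, 0.954 and 0.691 CPM (ratio to control 0.70, interval 0.13 to 1.28, from 67 and 44 UMIs, and 0.10 with that pseudocount). Macrophage-like cells had 81.9, 118, 63.4 and 60.03 CPM, with a ratio of 0.53 (0.12 to 0.93), short of 1.5-fold, and Pmaip1 was lower there with AMH added to doxorubicin (-0.90, interval -1.37 to -0.43, and -0.33 with each cell weighted equally). Outside the compared classes, B lymphocyte-like cells held 199, 44.9, 430.2 and 317 CPM, from only 11 to 50 cells and 7 to 127 UMIs per library, and there the doxorubicin library was lowest.

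Bcl2l11, which encodes BIM, the BH3-only protein that responds to loss of growth signals, had no ratio past 1.5-fold in the 6 classes. Granulosa-like cells held 39.1, 43.1, 39.7 and 53.4 CPM, theca-like cells 23.5, 27.6, 29.6 and 34.7 CPM, and stroma-like cells 42.3, 43.7, 41.6 and 49.8 CPM. The AMH library was highest in each. AMH / control was above 0 in 6 of 6 classes, from 0.15 in macrophage-like cells (-0.15 to 0.44) to 0.57 in endothelial cells (0.27 to 0.87). Doxorubicin+AMH / AMH was below 0 in 6 of 6 classes, from -0.47 to -0.01, and doxorubicin / control ran from -0.10 to 0.42.

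Bid and Bad, BH3-only proteins that link death receptors and growth factor signals to the mitochondria, had 1 ratio past 1.5-fold between them. Bid had enough UMIs in 3 classes only, with 7.19, 8.5045, 5.21 and 6.36 CPM in granulosa-like cells. There doxorubicin+AMH was lower than doxorubicin (ratio -0.71, interval -0.91 to -0.50, and -0.40 with a pseudocount of 5 CPM), while doxorubicin / control was 0.24 (0.06 to 0.43). Bad held 33.2, 38.1, 40.9 and 35.7 CPM in granulosa-like cells and 40.7, 45.1, 47.7 and 41.3 CPM in stroma-like cells. No Bad ratio of either doxorubicin pair passed 1.5-fold, with doxorubicin / control from -0.11 to 0.26 over the 5 classes with enough UMIs and doxorubicin+AMH / AMH from 0.02 to 0.41 over 6.

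**Figure D2:**
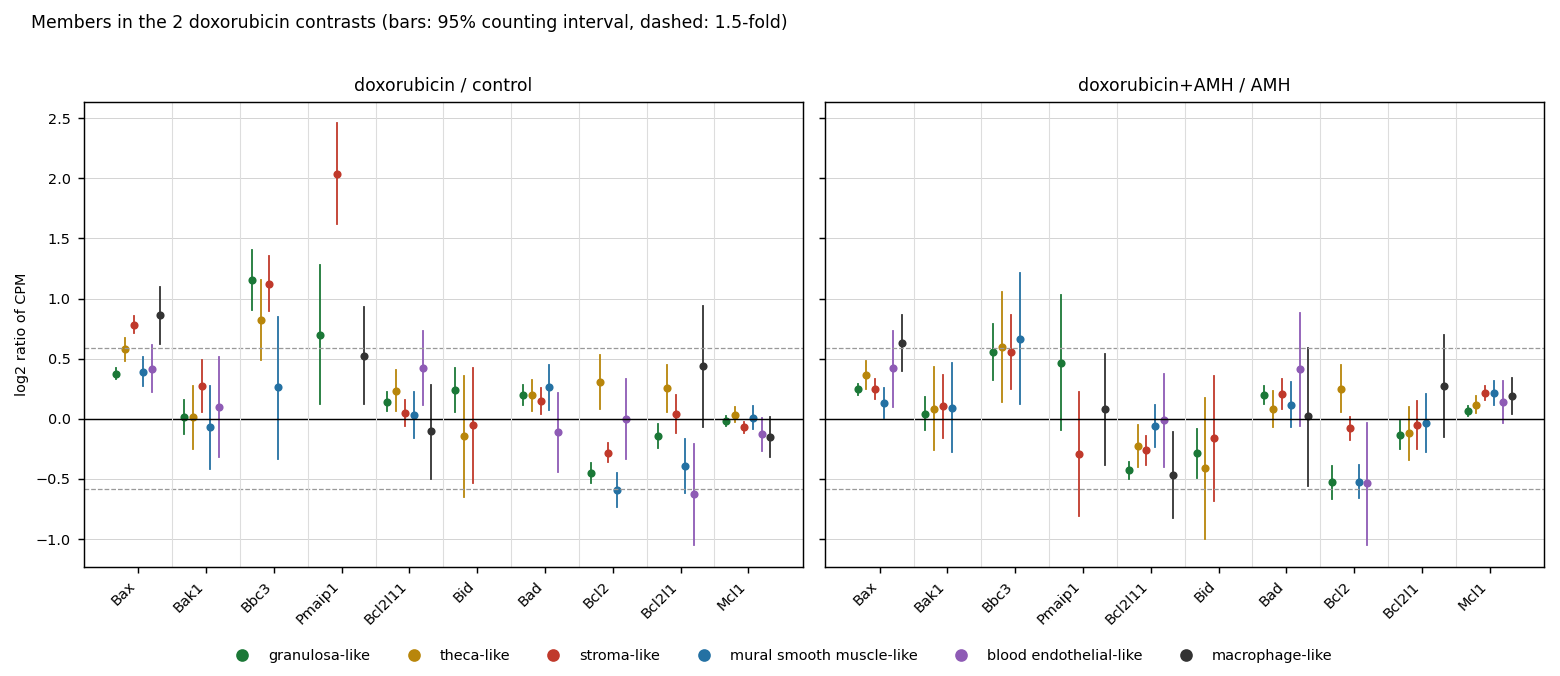
Log2 ratio (y axis) of each member (x axis) in the 6 classes (colours), doxorubicin / control on the left and doxorubicin+AMH / AMH on the right. Bars are 95% exact intervals for counting error only and dashed lines mark 1.5-fold. Bax lies above 0 in all 6 classes of both panels, and Mcl1 stays between -0.15 and 0.21.

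Bcl2, the founding pro-survival gene, was the member with both AMH ratios past 1.5-fold in opposite directions in different classes. Granulosa-like cells held 44.6, 32.7, 10.9 and 15.8 CPM. Both libraries with AMH lay below both without it, with AMH / control at -1.50 (-1.60 to -1.40; 0.353-fold) and doxorubicin+AMH / doxorubicin at -1.58 (-1.71 to -1.45; 0.334-fold). The doxorubicin ratios were also below 0 there, at -0.45 (-0.53 to -0.37) and -0.53 (-0.67 to -0.39), without passing 1.5-fold.

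Theca-like cells had the opposite order, with 13.01, 16.1, 27.4 and 23.0 CPM of Bcl2 and both AMH libraries highest. AMH / control was 0.82 (0.61 to 1.04) and doxorubicin+AMH / doxorubicin 0.77 (0.56 to 0.98). The first was -0.049 with cells gated one by one, and the second -0.28 with the clusters held at one mix. The theca-like class rested on different clusters in these libraries. A cluster led by Prss35 and Lhcgr held 30 and 18 of its cells in control and doxorubicin and 562 and 738 in doxorubicin+AMH and AMH, whereas one led by Cyp17a1, Cyp11a1, Aldh1a1 and Mgarp held 662, 420, 44 and 31. The summed theca marker level was 14046, 13476, 4852 and 4622 CPM over the 4 libraries in the same sequence, and dissociation stress genes were higher in the libraries with AMH. For AMH / control 10 of 18 were higher, against 11.5% of all genes (median ratio 0.64), and for doxorubicin+AMH / doxorubicin 6 of 18, against 9.96% (median 0.36). In the theca-like cluster present in all 4 libraries (140 to 156 cells each, led by Cyp17a1, Cyp11a1, Lhcgr and Enpep), Bcl2 held 47.7, 55.3, 40.9 and 37.4 CPM and the ratios were -0.35 (-0.67 to -0.03) and -0.44 (-0.74 to -0.13), opposite in sign to the class. What part the clusters and stress genes have in the class ratios was not tested.

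Stroma-like cells held 85.7, 70.5, 70.5 and 74.6 CPM of Bcl2 and mural cells 93.0, 61.7, 58.5 and 84.0 CPM. In mural cells doxorubicin / control was -0.59 (-0.73 to -0.45), just past 1.5-fold, and doxorubicin+AMH / AMH -0.52 (-0.66 to -0.38). The first was -0.23 with the clusters held at one mix. A mural cluster led by Myh11, Des, Actg2 and Cnn1 held 205, 18, 55 and 179 cells over the 4 libraries, and its Bcl2 level was 172 CPM in control and 147 in AMH. In the largest mural cluster, led by Acta2, Myh11, Tagln and Actg2 (545 to 742 cells), the Bcl2 ratios were -0.20 (-0.37 to -0.04) and -0.32 (-0.49 to -0.16). Both doxorubicin libraries were the lowest there.

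Bcl2l1, which encodes the pro-survival protein BCL-XL, was lower with AMH in granulosa-like cells, at 27.3, 24.6, 16.3 and 17.9 CPM, with both AMH libraries below both others. AMH / control was -0.61 (-0.71 to -0.50) and doxorubicin+AMH / doxorubicin -0.60 (-0.71 to -0.48), just past 1.5-fold. Both fell short in some alternatives, to -0.49 with a pseudocount of 5 CPM and to -0.41 with each cell weighted equally. In endothelial cells, with 43.1, 28.0, 30.3 and 26.7 CPM, control stood above the other 3 (doxorubicin / control -0.62, interval -1.05 to -0.21; AMH / control -0.69, interval -1.14 to -0.27). The first was -0.41 with doublets kept and the second -0.57 with cells gated one by one, both short of 1.5-fold. The endothelial class also carried 17.3, 16.2, 6102 and 382 CPM of erythroid markers over the 4 libraries. Its macrophage markers summed to 34.6, 27.6, 29.4 and 244 CPM and its stroma markers to 221, 142, 230 and 576 CPM, both highest in AMH. The part of these markers in the endothelial values of Bcl2l1 and Bak1 was not tested.

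Mcl1, the short-lived pro-survival protein that NOXA binds, stayed within 1.5-fold in the 6 compared classes and all 4 contrasts. Granulosa-like cells held 125, 123, 129 and 124 CPM and theca-like cells 197, 202, 217 and 199.98 CPM. Its widest ratio among these was AMH / control in stroma-like cells (234 against 182 CPM, -0.36, interval -0.41 to -0.31). Doxorubicin / control ran from -0.15 to 0.04 in those classes. Outside them T or NK lymphocyte-like cells passed 1.5-fold in doxorubicin+AMH / doxorubicin (1.04, interval 0.50 to 1.62, from 138 and 35 UMIs).

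**Figure D3:**
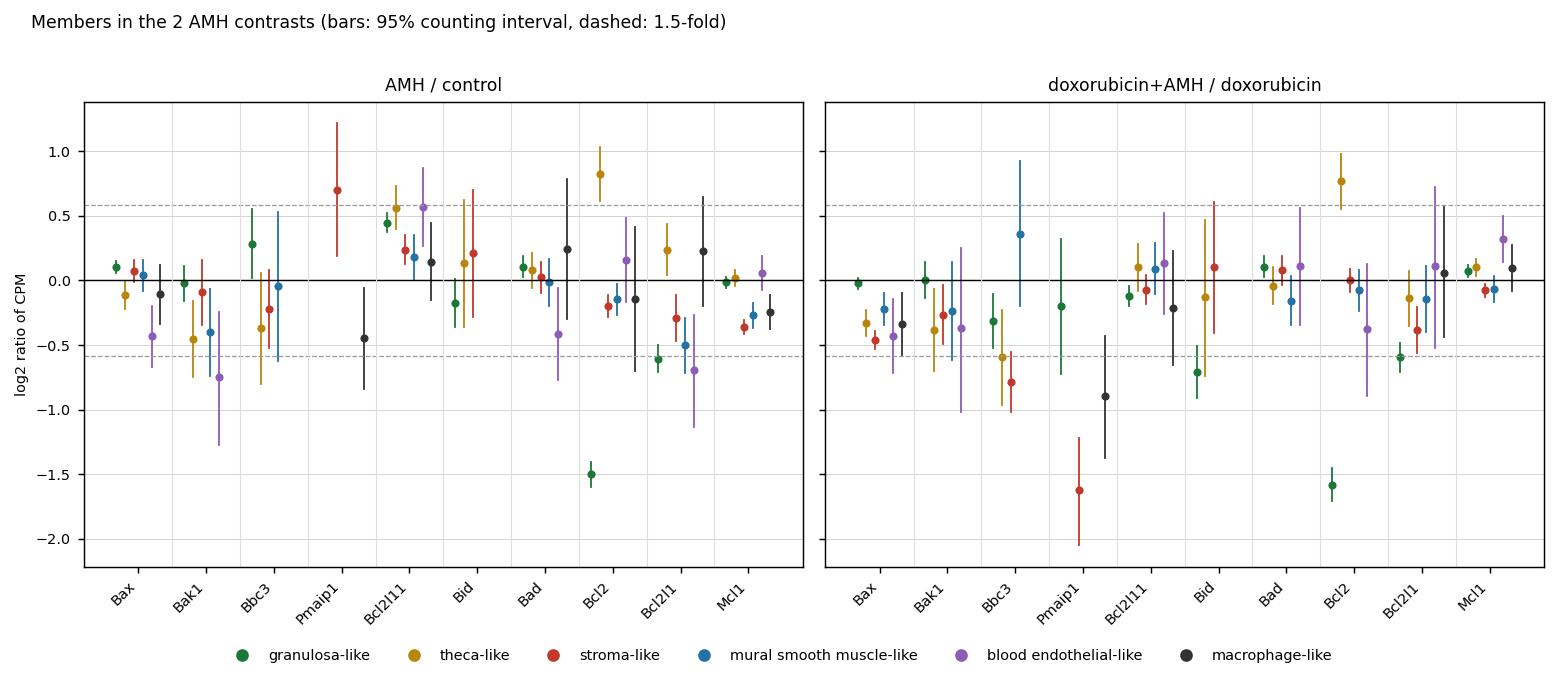
Log2 ratio (y axis) of each member (x axis) in the 6 classes (colours), AMH / control on the left and doxorubicin+AMH / doxorubicin on the right. Bars are 95% exact intervals for counting error only and dashed lines mark 1.5-fold. Bcl2 lies at -1.50 and -1.58 in granulosa-like cells and at 0.82 and 0.77 in theca-like cells.

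Over the 6 classes 49 member and class pairs had enough UMIs in doxorubicin / control, of which 7 were higher and 2 lower. Among all 64180 gene and class pairs the shares were 1.72% higher and 2.23% lower, so the lower share of the members lay near the background. In doxorubicin+AMH / AMH 3 of 48 pairs were higher and 0 lower, against 1.57% and 3.30% of all pairs. In AMH / control 2 of 50 were higher and 4 lower, against 4.04% and 5.64%, so both shares lay near the background. In doxorubicin+AMH / doxorubicin 1 of 49 was higher and 7 lower, against 3.52% and 6.42%, and the higher share lay near the background. Of these 26 calls, 6 stayed past 1.5-fold in every alternative that gave a value and 20 fell short in at least 1. The 6 were Bbc3 and Pmaip1 in stroma-like cells and Bax in macrophage-like cells with doxorubicin / control, Pmaip1 in stroma-like cells with doxorubicin+AMH / doxorubicin, and both AMH ratios of Bcl2 in granulosa-like cells.

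By class, doxorubicin / control had 2 of 10 members higher in granulosa-like cells (Bbc3, Pmaip1), against 0.991% of all genes there, and 3 of 10 in stroma-like cells (Bax, Bbc3, Pmaip1), against 2.83%. Oocyte markers in stroma-like cells summed to 26.2, 182, 5.29 and 94.3 CPM over the 4 libraries, highest in doxorubicin, and their part in these counts was not tested. With AMH alone, 2 of 9 members were lower in granulosa-like cells (Bcl2, Bcl2l1), against 6.73%. With AMH added to doxorubicin, 3 of 10 were lower in granulosa-like cells (Bid, Bcl2, Bcl2l1), against 7.92%, and 2 of 10 in stroma-like cells (Bbc3, Pmaip1), against 4.51%. In theca-like cells Bcl2 was the 1 member of 9 higher with AMH alone, against 11.5% of all genes, and the 1 of 9 higher with AMH added to doxorubicin, against 9.96%. Neither theca share stands out from its background.

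Pro-death genes were weighed against pro-survival genes by their share of the UMIs of all 10 members. In granulosa-like cells the share was 50.4% (interval 49.8 to 51.0), 57.6%, 60.3% and 58.8% over the 4 libraries, with control lowest. Stroma-like cells held 35.1%, 45.5%, 41.7% and 41.7%, theca-like cells 40.2%, 45.7%, 39.9% and 39.3%, and mural cells 39.6%, 47.5%, 46.6% and 44.4%. Endothelial cells held 40.7%, 48.2%, 41.3% and 37.7%, and macrophage-like cells 40.1%, 50.8%, 42.7% and 42.6%. The doxorubicin library was above control in 6 of 6 classes, and doxorubicin+AMH above AMH in 5. In the second pair the intervals of theca-like cells overlapped (38.7 to 41.0 and 38.1 to 40.4). Those of mural cells (45.2 to 48.0 and 43.1 to 45.7), endothelial cells and macrophage-like cells overlapped as well. AMH was above control in 4, though the macrophage-like intervals overlapped (40.4 to 44.9 and 37.8 to 42.3). Doxorubicin+AMH was above doxorubicin in 1, the granulosa-like class.

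In granulosa-like cells both parts of this share differed between libraries. Summed pro-death CPM was 200.1, 245.5, 237.9 and 224.4, and summed pro-survival CPM 196.6, 180.5, 156.6 and 157.3. The doxorubicin library was highest in the first and both AMH libraries lowest in the second. Mcl1 made up 63.4%, 68.2%, 82.6% and 78.6% of the pro-survival sum, and without Mcl1 the pro-death share was 73.6%, 81.1%, 89.7% and 86.9%. These shares add 3′-end UMIs of different genes and are not ratios of protein.

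**Figure D4:**
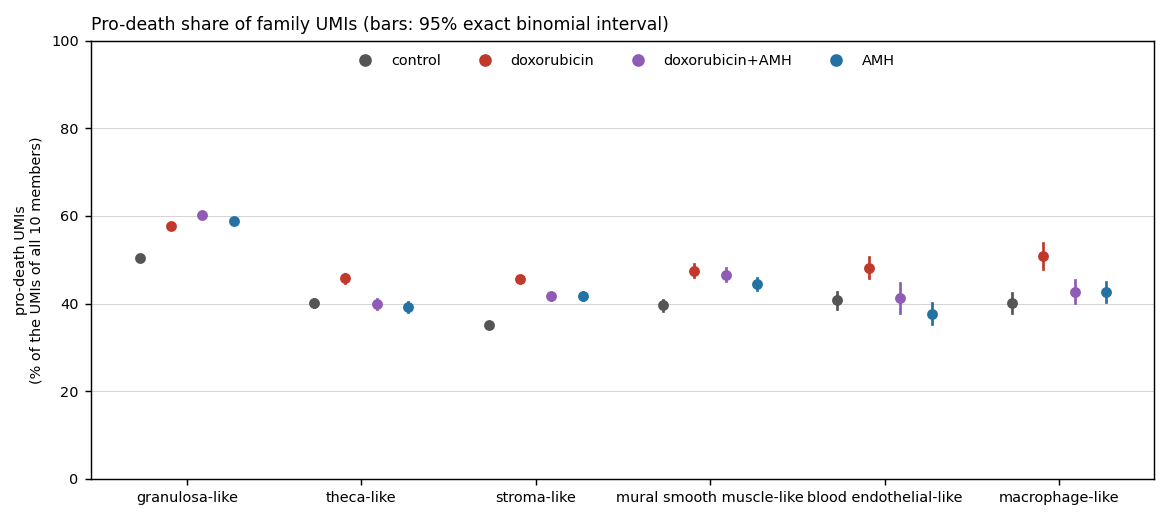
Pro-death share of the UMIs of the 10 members (y axis, percent, from 0 to 100) in each class (x axis) for the 4 libraries (colours); bars are 95% exact Clopper-Pearson intervals for counting error only. The doxorubicin point lies above control in all 6 classes, and in granulosa-like cells all 3 treated libraries (57.6% to 60.3%) lie above control (50.4%).

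Levels also differed between the classes. Macrophage-like cells had the highest mean Bax level over the 4 libraries (259.7 CPM, from 186 to 364), above the range of every other class. The other 5 classes overlapped with their neighbours in order, from endothelial cells (125.1 CPM) through granulosa-like cells (120.9 CPM) to theca-like cells (80.0 CPM). Mcl1 was also highest in macrophage-like cells (579 CPM), then endothelial cells (324.8 CPM), with no overlap at either step. Stroma-like (212.1 CPM) and theca-like cells (204.1 CPM) overlapped, and mural (144.9 CPM) and granulosa-like cells (125.2 CPM) came last. Bcl2 was highest in stroma-like (75.3 CPM) and mural cells (74.3 CPM), which overlapped each other and lay above the rest. Outside the compared classes, T or NK lymphocyte-like cells held 276, 324, 146 and 215 CPM of Bcl2. Bad and Bbc3 overlapped between neighbours through the whole order. Macrophage-like cells in the doxorubicin library held 927 CPM of neutrophil markers, against 199 in control, 549 in doxorubicin+AMH and 332 in AMH. The part of those cells in the Bax values was not tested. Dissociation stress genes of this class had a median of -0.30 in doxorubicin / control (2 of 18 lower, against 4.89% of all genes). In doxorubicin+AMH / AMH it was -0.32 (5 of 18 lower, against 7.13%), and the part of these genes was not tested either.

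Within stroma-like cells the doxorubicin difference was uneven. A cluster led by Dpt, Col1a1, C3 and Clec3b (299, 198, 137 and 265 cells) held 49.7, 247, 59.4 and 50.7 CPM of Bax. The doxorubicin library stood alone, with a ratio to control of 2.31 (2.08 to 2.55), whereas doxorubicin+AMH / AMH was 0.23 (-0.16 to 0.61). Bbc3 did the same at 7.57, 43.6, 7.11 and 9.61 CPM (doxorubicin / control 2.53, interval 1.93 to 3.17). Bcl2 went the other way at 146, 51.2, 91.7 and 109 CPM (-1.51, interval -1.77 to -1.26). In this cluster 2 of 6 measured members were higher, against 7.45% of all genes, and 1 lower, against 11.7%. With AMH added to doxorubicin 3 of 6 were lower (Bax, Bbc3, Bcl2l11), against 11.0%, and 1 was higher (Bcl2, 0.84, interval 0.51 to 1.18), against 9.03%. Of the dissociation stress genes of this cluster 5 of 18 were lower in doxorubicin / control (median -0.15) and 5 of 18 higher with AMH added to doxorubicin (median 0.20), and their part in the members' ratios was not tested. In the other 5 stroma-like clusters Bax ran from -0.18 to 0.66.

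Without that cluster the stroma-like doxorubicin / control ratio of Bax was 0.58, that of Bbc3 0.80, of Pmaip1 1.45 and of Bcl2 -0.11. Pmaip1 in doxorubicin+AMH / doxorubicin was then -1.04. Bbc3 then passed 1.5-fold in doxorubicin+AMH / AMH as well, at 0.70 (0.56 with the cluster). The pro-death share was then 36.3%, 44.2%, 42.3% and 43.5% over the 4 libraries, with control lowest and doxorubicin highest as before.

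Surface epithelial-like cells (107, 94, 38 and 66 cells), too few for the 6 compared classes, had wider doxorubicin / control ratios of Bax and Bbc3 than any of those classes. For doxorubicin+AMH / AMH this did not hold, with a Bax ratio of 0.57 against 0.63 in macrophage-like cells. Bax held 49.4, 205, 90.4 and 61.0 CPM, Bbc3 6.37, 57.0, 20.9 and 5.598 CPM, and Pmaip1 34.3, 82.7, 27.8 and 8.09 CPM. Doxorubicin was highest in each, with ratios to control of 2.05 (1.80 to 2.31), 3.16 (2.505 to 3.89) and 1.27 (0.95 to 1.60). Bcl2l1 was higher as well, at 60.04, 101, 53.9 and 39.8 CPM (0.75, interval 0.49 to 1.02). Of 8 measured members 4 were higher, against 5.63% of all genes, and with AMH added to doxorubicin 4 of 7 were lower, against 16.9%. Dissociation stress genes were also lower in that pair, 7 of 18 (median -0.32), and their part in the members' ratios was not tested. The cluster led by C3, Slpi and Upk3b held 39, 39, 2 and 35 cells, so in doxorubicin+AMH the class was almost only the cluster led by Lgals7, Nrg1 and Krt18 (68, 55, 36 and 31 cells), where Bax had a doxorubicin+AMH / doxorubicin ratio of -1.24 (-1.70 to -0.80). Both surface epithelial-like clusters had a raised Bax level in doxorubicin, 208 against 49.9 CPM in the one led by Lgals7, Nrg1 and Krt18, and 201 against 47.9 CPM in the one led by C3, Slpi and Upk3b.

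Lymphatic endothelial-like cells (38 to 77 per library), also outside the 6 classes, held 129.95, 301, 200.3 and 139 CPM of Bax, with a doxorubicin / control ratio of 1.21 (0.94 to 1.48). Both doxorubicin libraries were again above both others.

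Within granulosa-like cells the lower Bcl2 level with AMH was found in each of the 4 clusters with at least 100 UMIs of Bcl2 in both pairs of libraries. The cluster led by Cntn4, Slc18a2 and Amh (373, 322, 165 and 262 cells) had 106, 74.9, 19.0 and 23.4 CPM, with AMH / control at -2.18 (-2.42 to -1.95) and doxorubicin+AMH / doxorubicin at -1.98 (-2.30 to -1.67). The cluster led by Inhba, Fst, Inha and Hsd17b1 (582, 552, 867 and 965 cells) had 14.8, 11.3, 5.98 and 7.37 CPM (-1.0045 and -0.92). The other 2, led by Kcnq5 and by Inhba, Fst and Mctp1, had -0.72 and -0.46, and -0.72 and -0.81. Both AMH libraries were lowest in all 4. Apart from the Cntn4-led cluster, the ratios were smaller in size than those of the class (-1.50 and -1.58). What part the cluster sizes have in the class ratios was not tested. A pair of other clusters lay almost only in the doxorubicin library (173 of 174 and 79 of 83 cells).

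**Figure D5:**
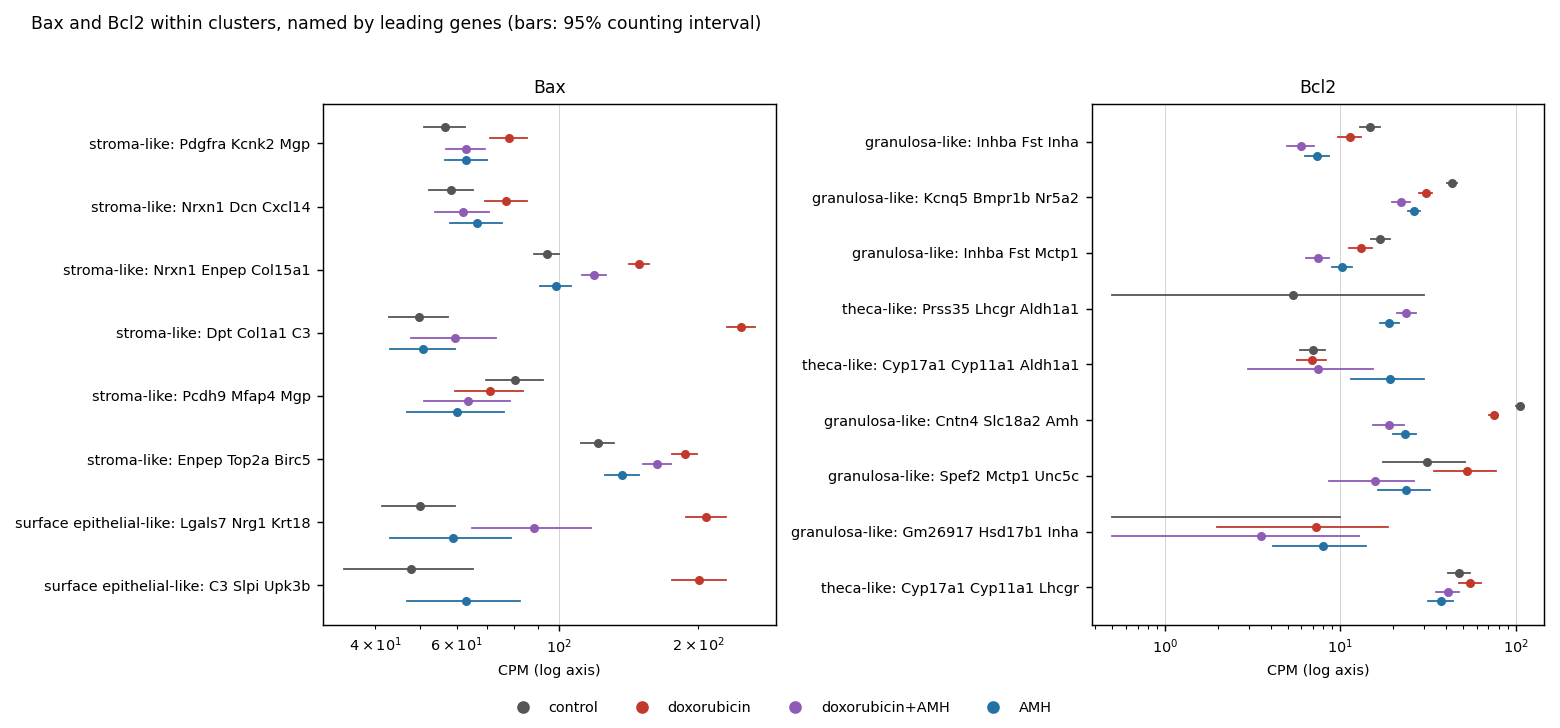
Levels (CPM, log axis) per cluster and library (colours) of Bax in stroma-like and surface epithelial-like clusters and of Bcl2 in granulosa-like and theca-like clusters; bars are 95% exact Poisson intervals for counting error only. The Bax level of the cluster led by Dpt, Col1a1, C3 and Clec3b is 247 CPM in doxorubicin and 49.7 to 59.4 CPM in the other 3 libraries.

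Single cells were thinned to 2000 UMIs to compare the share of cells with a transcript at equal depth. Bax was seen in 11.9%, 19.8%, 14.9% and 14.2% of stroma-like cells, and doxorubicin was highest. Unthinned the shares were 48.1%, 63.5%, 50.4% and 44.1%, at median depths of 8814, 11556.5, 8940 and 7855 UMIs. Erythroid-like cells, which stand in for free RNA, gave thinned Bax shares of 6.52%, 9.26%, 0 of 59 cells (a count of 0 allows 3 counts, or 5.08%) and 3.23%, from 31 to 59 cells, at median depths of 5474, 6553, 5472 and 3928 UMIs. The erythroid-like intervals of control, doxorubicin and AMH reached 17.9%, 20.3% and 16.7%, so at this number of cells the stroma-like share was separated from free RNA in the doxorubicin+AMH library only. Bcl2 was seen in 5.61%, 5.84%, 2.26% and 3.57% of thinned granulosa-like cells. Unthinned these were 33.2%, 30.9%, 16.8% and 19.7%, at median depths of 22445, 21285.5, 20887 and 16294 UMIs. Erythroid-like cells had Bcl2 in 0 of 31 to 0 of 59 thinned cells, which by the same limit of 3 counts allows 5.08% to 9.68%, so these granulosa-like shares were not separated from free RNA at this number of cells. The granulosa-like doxorubicin share does not follow its CPM, and no order is read between control and doxorubicin from it.

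Genes around the family were read from lists. The p53 targets outside the family (20 genes) had a median doxorubicin / control ratio of 1.03 in stroma-like cells, with 13 of 20 measured genes higher, against 2.83% of all genes and an all-gene median of -0.02. In granulosa-like cells it was 0.34 (7 of 20 higher, against 0.991%, all-gene median -0.03) and in theca-like cells 0.40 (7 of 17, against 1.41%, all-gene median -0.01). With doxorubicin+AMH / AMH the medians were 0.20 (4 higher, against 1.07%), 0.04 (3, against 1.39%) and 0.11 (5, against 1.36%) in the same order. In mural cells 4 of 18 were higher for doxorubicin / control, against 1.11%, and 0 of 18 for doxorubicin+AMH / AMH, against 1.30%. In endothelial cells these were 2 of 13, against 1.35%, and 0 of 8, against 2.87%, and in macrophage-like cells 4 of 7, against 4.09%, and 3 of 6, against 3.36%. In the last of these, 1 of the 6 was lower, against 7.13%. In the Clec3b-led stroma-like cluster the doxorubicin / control median was 3.00 (14 of 16 higher, against 7.45%) and in surface epithelial-like cells 2.38 (15 of 18, against 5.63%). With doxorubicin+AMH / AMH these were 0.19 (2 of 8, against 4.63%) and 0.58 (2 of 5, against 8.90%).

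Among genes past 1.5-fold in both doxorubicin pairs, Cdkn1a, which halts the cell cycle, had ratios of 2.83 and 0.64 in stroma-like cells and 1.83 and 0.59 in granulosa-like cells (doxorubicin / control, then doxorubicin+AMH / AMH). The theca-like ratios were 2.79 and 1.14, and those of macrophage-like cells 1.58 and 1.28. Eda2r, a death receptor of the TNF family, had 2.497 and 0.87 in stroma-like, 1.55 and 0.86 in granulosa-like and 3.16 and 2.27 in theca-like cells. Tnfrsf10b, a TRAIL receptor, had 1.65 and 0.70 in stroma-like cells, and Gtse1, which restrains p53, had 1.44 and 0.65 there. Theca-like cells also had Phlda3, an inhibitor of Akt signalling (2.24 and 0.81), Zmat3 (1.08 and 0.69) and Aen, a nuclease (0.998 and 0.59). Mdm2, the ligase that degrades p53, had 1.23 and 0.62 in macrophage-like cells, where Ccng1 had 2.16 and 0.87.

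The machinery below the mitochondria was read the same way. Of 16 genes listed (Apaf1, caspases, cytochrome c and others), 0 passed 1.5-fold with doxorubicin / control in granulosa-like, theca-like, stroma-like or mural cells, each with 16 measured, and the medians were 0.07, 0.06, 0.13 and 0.11. In the Clec3b-led cluster 3 of 13 were higher, against 7.45% of all genes, and in surface epithelial-like cells 3 of 14, against 5.63%. In theca-like cells AMH / control had 2 of 16 higher, against 11.5% of all genes, and 4 lower, against 10.3% (median -0.24), and doxorubicin+AMH / doxorubicin 2 higher, against 9.96%, and 4 lower, against 11.0% (median -0.25). Of the 12 other Bcl2 family genes, 6 were measured in granulosa-like cells and 0 passed in doxorubicin / control. In stroma-like cells 1 of 6 was higher, against 2.83%, and in surface epithelial-like cells 2 of 3 were lower, against 5.36%. The stroma-like gene was Bcl2l10, a family member known from oocytes and named here after its values were seen, at 0.23 CPM in control and 23.1 in doxorubicin (6.65, interval 5.67 to 7.87), and the summed oocyte markers of this class were 26.2, 182, 5.29 and 94.3 CPM over the 4 libraries; their part in this value was not tested. In theca-like cells 1 of 6 was higher in AMH / control, against 11.5% of all genes, a share near that background. It was Bmf, a BH3-only gene chosen here after its values were seen, at 1.24 CPM in control and 5.23 in AMH (2.08, interval 1.49 to 2.71). The theca-like class rested on different clusters in those libraries (above), whose part in this value was not tested. Of 14 regulators of the members, such as Trp53 and Foxo3, 13 were measured in granulosa-like cells and 0 passed in any of the 4 contrasts. In stroma-like cells 1 of 13 was lower in both doxorubicin pairs, Trp63, a p53 relative known for oocyte death (-0.62 and -0.80), against 1.92% and 3.51% of all genes. In theca-like cells AMH / control had 2 of 13 higher and 2 lower, against 11.5% and 10.3%, and doxorubicin+AMH / doxorubicin 3 of 12 lower, against 11.0%. In macrophage-like cells AMH / control had 3 of 12 higher, against 4.57%.

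Profile likeness was read over 24 points (6 classes in 4 libraries, each class centred on its own mean), which share libraries and depth, among 7157 genes. The profile closest to that of Bax was Ccng1, a cyclin-like p53 target (Pearson r = 0.942), followed by Gm42047 (0.922) and Commd3 (0.902). Bcl2l11 was closest to Gm37494 (0.819), Zfp395 (0.806) and Rps29 (0.779). Bcl2 was closest to Zyx (0.857), Pdgfc (0.813) and Adgrf5 (0.789), and Mcl1 to Erlec1 (0.8005), Notch3 (0.786) and Ino80 (0.774).

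The members lie apart in the genome, on GRCm38 with the GENCODE vM21 annotation. Bax (ENSMUSG00000003873, chr7:45461697-45466898, minus strand) and Bbc3 (ENSMUSG00000002083, chr7:16308393-16318205, plus strand) share a chromosome, as do Bcl2l11 (ENSMUSG00000027381, chr2:128126038-128162547, plus strand) and Bcl2l1 (ENSMUSG00000007659, chr2:152780668-152831728, minus strand). Bak1 (ENSMUSG00000057789) is at chr17:27019810-27029009 (minus), Bid (ENSMUSG00000004446) at chr6:120891930-120916853 (minus), Bad (ENSMUSG00000024959) at chr19:6941861-6951899 (plus), Bcl2 (ENSMUSG00000057329) at chr1:106538178-106714274 (minus) and Mcl1 (ENSMUSG00000038612) at chr3:95658788-95663176 (plus). No member overlaps another counted gene on its own strand.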

How the data were processed

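The deposited values are raw UMI counts for each gene in each barcode, and per the file headers Cell Ranger 7.0.0 wrote them. The submitters' processing notes name the mm10 build, R 4.2.0 and Seurat 4.1.0. Whether intronic reads or strand were used in counting is not given in the sources used here. Droplet libraries of 3′ transcript ends (v3.1 kit) were made from enzymatically digested ovary, per the labels' protocols.

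Barcodes under 1000 UMIs or above 20% mitochondrial UMIs were dropped. The highest doublet scores (Scrublet in scanpy 1.11.5) were taken as doublets at 0.8% for every 1000 recovered cells. Listed as control, then doxorubicin, then doxorubicin+AMH, then AMH, this removed 632, 366, 437 and 648 cells and left 7956, 6040, 6546 and 7898. Scrublet's own threshold marked 194, 0, 1 and 0 cells and was not used. The libraries were clustered together without batch correction on 2000 variable genes, 30 principal components (scikit-learn 1.9.0) and 20 neighbours, with Leiden clustering at resolution 1 (leidenalg 0.10.2), into 32 clusters. A cluster was named when 3 or more markers, making up 40% or more of a class's list, exceeded the median cluster by 1 log2 unit and were seen in 10% or more of its cells, and all 32 were named, in 12 classes. These naming thresholds were set after the data were seen. Since the classes are rebuilt here, they may differ from those of the study.

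UMIs were summed per class and library and divided by the class sum to give CPM. Ratios of 2 libraries carry exact conditional binomial intervals, CPM exact Poisson intervals and shares Clopper-Pearson intervals, all at 95% (scipy 1.17.1). They cover counting error only. A ratio was given where a gene had at least 100 UMIs in both libraries together, and cluster values where a library had at least 30 cells. The calculation of fold calls and intervals was checked on simulated Poisson counts with known folds. These hold no variation between cells, animals or libraries, so the check does not bear on such variation. Promoter windows came from RefSeq (GRCm38.p6).

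The members and all gene lists were chosen with earlier results of these data known. All 10 members are described, other genes are named where they passed 1.5-fold the same way in both doxorubicin pairs (up to 5 a class) apart from Bmf and Bcl2l10, and likeness is given for the 3 nearest genes whose mean is 20 CPM or more. Alternatives covered cell filters, doublets, scaling, cell weighting, gating, clusters left out or held at one mix, the UMI minimum and a pseudocount.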

Additional observations from a re-analysis of the deposited data

Results flagged for a closer look

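Bcl2 had opposite signs with AMH in 2 classes. AMH / control was 0.82 on the log2 scale in theca-like cells and -1.50 in granulosa-like cells. With AMH added to doxorubicin the ratio was 0.77 in theca-like cells and -1.58 in granulosa-like cells. With 1 library per group the difference between the classes was not tested. The theca-like AMH / control ratio changed sign when cells were gated one by one, and that of doxorubicin+AMH / doxorubicin when clusters were held at one mix, whereas the ratios of granulosa-like cells stayed between -1.63 and -1.08 over all alternatives run.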

How the results depend on the processing

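Member and class pairs past 1.5-fold numbered 9 (doxorubicin / control), 3 (doxorubicin+AMH / AMH), then 6 (AMH / control) and lastly 8 (doxorubicin+AMH / doxorubicin). At a minimum of 400 UMIs per gene these were 5, 1, 3 and 5. With a pseudocount of 5 CPM they were 4, 1 and 4 for the first, second and last. With each cell weighted equally the AMH / control count was 10 and the doxorubicin+AMH / doxorubicin count 5, and with clusters held at one mix (chosen after seeing the data, as were leaving out the clusters almost only in doxorubicin and those of low UMIs) 5 for doxorubicin+AMH / AMH. That mix gave 2 classes with a higher pro-death share in doxorubicin+AMH than in doxorubicin, in place of 1. Over 13 settings the counts ran from 4 to 11, 1 to 5, 3 to 10 and 4 to 9. Fewer pairs can pass under a higher UMI minimum or a pseudocount by their construction, and for the other settings the cause was not tested.

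Of the single ratios, 3 reversed. Bcl2 in theca-like cells with AMH / control was -0.049 with cells gated one by one (0.82 as reported) and, with doxorubicin+AMH / doxorubicin, -0.28 at one cluster mix (0.77). Bbc3 in theca-like cells with doxorubicin+AMH / AMH was -0.13 at one mix (0.60). Of the other values 2338 stayed within the counting interval of the reported ratio and 128 left it. Over all alternatives 112 of 2469 ratios changed sign, all but the 3 above from reported values short of 1.5-fold. Bax doxorubicin / control stayed within 0.33 to 0.41 in granulosa-like, 0.58 to 0.81 in stroma-like and 0.65 to 0.96 in macrophage-like cells. Bbc3 ran from 0.55 to 1.26 in granulosa-like cells and Pmaip1 from 0.86 to 2.06 in stroma-like cells. Gating cells one by one shared 28.3% of mural cells with the clusters, the lowest overlap of the 6 classes.

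No paired analysis was possible because each group is 1 library. Counts of Pmaip1 and Bid limit their ratios most, and the spread between animals, dissections and libraries cannot be seen.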
